A study of Mus musculus with 3 samples.

Results

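LuM1 and NM11 are sister sublines of the murine colon carcinoma line Colon26, and their transcriptomes were set against each other gene by gene. LuM1 is the rapidly metastatic subline and NM11 a slowly metastatic one, so the comparison asks which transcripts differ between relatives that share a parent but not their metastatic behaviour. Each line was read on 1 single-colour array, and these 2 arrays of the 3 in the series were compared over all non-control probes. The comparison covered 56605 distinct probes, which named 22911 genes, and for 14428 genes 1 or both arrays gave a signal well above background. These are the genes called tested below.

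All cells were recorded as female and of the BALB/c strain, and carried no engineered allele in the labels used here. They were grown for 3 days without a drug or other agent, in RPMI1640 medium with 10% fetal bovine serum and antibiotics, and 0.1 µg of total RNA of each line was labelled with Cy3. Each subline is a selected cell population kept in culture, so a difference between LuM1 and NM11 cells is a difference between these cultures and not between many tumors. Since each array read the RNA of a whole culture, fewer cells expressing a gene and less of its RNA per cell cannot be told apart.

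To form a metastasis, a tumor cell leaves its neighbours, crosses basement membrane and matrix, survives in vessels and grows at a distant site. Collagens, laminin-binding integrins and adhesive glycoproteins hold cells in place, matrix metalloproteinases and cathepsins cut that matrix, and inhibitors such as the TIMPs block the cutting enzymes. Chemokines draw leukocytes to a tumor, and interferon-stimulated genes are the antiviral response of a cell to interferon or to nucleic acids in its cytosol. ABCG1, which the study is about, and ABCG2 are membrane pumps, of which ABCG1 exports cholesterol and ABCG2 exports drugs and other small molecules.

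The arrays were alike in quality. Between 49.9% and 53.8% of probes were well above background on each array, none was saturated, and the 75th percentiles of the deposited signals lay between 551.5 and 625.1. Signals below are intensities after each array was scaled to the same 75th percentile, 585.1, and are compared between arrays for the same probe only. The scanner software's error was between 10.0% and 22.0% of the signal for the 171 genes chosen for naming, which makes 0.20 to 0.35 on a log2 ratio. Repeated spots of a probe gave log2 ratios with a median SD of 0.032. Both errors are technical, and with 1 array a side no difference has a replicate check, no test was run and no p-value is given. Whether another culture of the same lines would give the same difference was not measured.

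Most genes had similar signals in the sublines. Of 12850 genes well above background on both arrays, 84.3% differed by less than 2-fold, and log2 ratios of LuM1 over NM11 had a median of -0.11, with the 5th percentile at -1.18 and the 95th at 1.37. At least 2-fold higher in LuM1 cells were 1613 genes, 11.2% of the 14428 tested, of which 526 rest on a bound because NM11 cells were not well above background. At least 2-fold lower were 1225 genes, 8.49% of those tested, of which 300 rest on a bound. Over probes, named or not, 3536 of 32213 were higher and 2405 (7.47%) were lower. A difference of at least 16-fold separated 155 genes upward and 85 downward, and one of at least 64-fold separated 40 and 24.

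**Figure D1:**
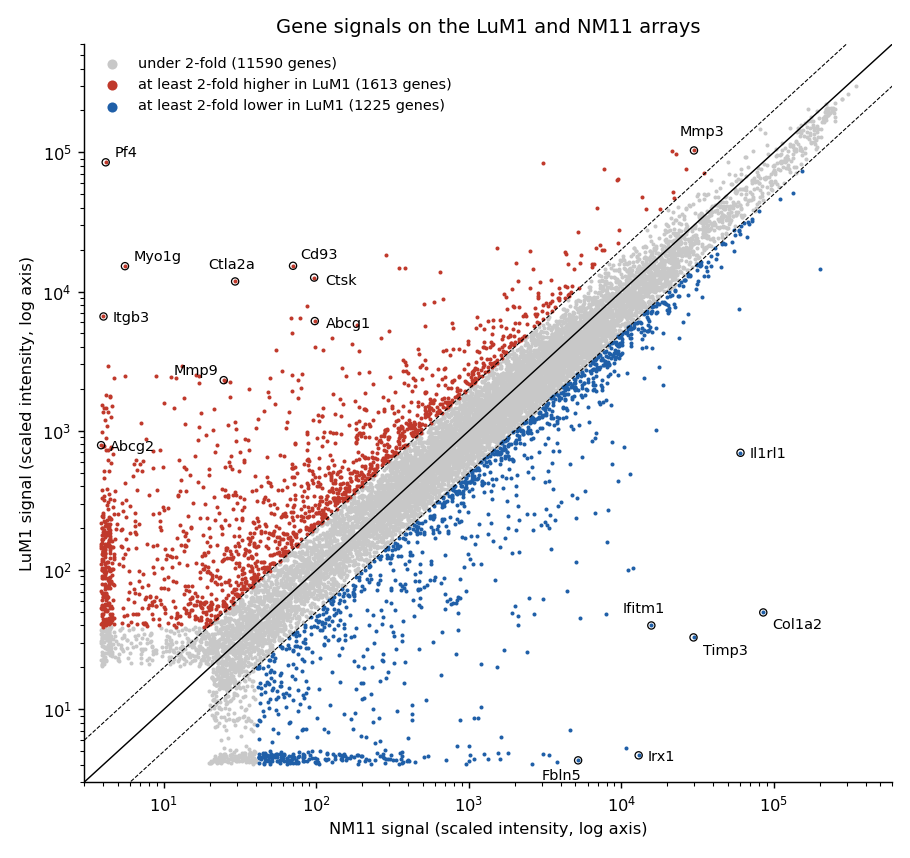
Signal of each of the 14428 tested genes on the NM11 array (horizontal, scaled intensity, log axis) and the LuM1 array (vertical, same unit), with the line of equal signal and dashed lines at 2-fold. Red points mark 1613 genes that LuM1 cells expressed at least 2-fold higher, and blue points 1225 lower ones. The bands near a signal of 4 hold genes that were not well above background on 1 array, which were called by a bound and not by the plotted ratio.

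The balance of higher against lower genes depended on the scaling. Of all called genes, 56.8% were higher in LuM1 cells, against 68.8% without scaling, 77.5% with scaling to the E1A spike-in controls, 81.5% in the values the authors processed and 87.8% with scaling to *Hprt*, a reference gene of the study's RT-qPCR. *Hprt* itself had a signal of 10351 in LuM1 and 15573 in NM11 cells, a log2 ratio of -0.59. These scalings moved the median of all genes by 0.18, 0.33, 0.41 and 0.59 on the log2 scale, upward in each case. Gene groups are therefore read below by their distance from the median of all genes, a distance that no constant factor can change. Alternatives that are not constant factors, such as quantile normalization and normexp background correction, can change that distance. *Gapdh* (log2 ratio 0.22 on its brightest probe, 0.31 to 0.41 on the others), *Actb* (-0.14) and *B2m* (0.13) lay closer to equality than *Hprt*. Equality here means the same scaled signal, not the median of all genes.

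Genes far higher in LuM1 cells were led by a protease inhibitor, vessel-associated receptors and a bone-degrading protease. *Ctla2a*, an inhibitor of cathepsin-type proteases, read 11823 in LuM1 and 29.3 in NM11 cells, a 404-fold ratio (log2 8.66 ± 0.29, scanner error). That NM11 signal was near the lowest well-above-background signal of the array, 19.6. The ratio ran from 123- to 607-fold over the alternative ways of processing, so its size is uncertain. *Ctla2b*, the neighbour and near-identical relative of *Ctla2a*, read 5056 and 69.5, and the probes of this pair may bind both transcripts. *Cd93*, a receptor of endothelial and myeloid cells, read 15316 and 70.3, or 218-fold. *Ctsk* encodes cathepsin K, the collagen-cutting protease of osteoclasts, and read 12603 against 96.7, or 130.4-fold. LuM1 cells were the high line for each of these genes, and the parent line Colon26 read 6.22, 5.94, 342 and 42.2 in turn, of which the values for *Ctla2a* and *Ctla2b* were not well above background.

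The *Ctla2a* promoter is shown as that of the leading gene on the higher side, in the first of its 2 listed windows, 250 bases before to 50 after the start of transcription, from RefSeq on GRCm38.p6, chr13:60936576-60936875, minus strand, 5′ to 3′. Capitals mark the letters TGANTCA, the binding motif of the AP-1 transcription factors, which also stands in the promoter of *Mmp3* shown further on.
*Ctla2a*: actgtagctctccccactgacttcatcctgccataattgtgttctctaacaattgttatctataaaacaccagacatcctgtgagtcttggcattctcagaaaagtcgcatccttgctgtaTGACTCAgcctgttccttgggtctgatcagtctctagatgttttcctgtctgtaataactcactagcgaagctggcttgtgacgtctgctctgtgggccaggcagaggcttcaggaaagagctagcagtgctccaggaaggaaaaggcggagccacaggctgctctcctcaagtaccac

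The next genes in the order had varied functions. *Slc39a4*, a zinc importer, read 6495 in LuM1 and 68.6 in NM11 cells (94.7-fold). *Mmp9*, the gelatinase that cuts basement membrane collagen, read 2311 and 24.7 (93.7-fold), and its second probe, not well above background in NM11 cells, gave a log2 ratio of at least 6.83. Its NM11 signal was near background too, and its ratio ran from 23.6- to 141-fold over the alternatives. *Mapt*, which encodes the microtubule-binding protein tau of neurons, read 7925 and 86.6 (91.5-fold), and its other 3 probes gave log2 ratios of 6.65 and 7.07 and a lower limit of 3.55. Each of them was bright in LuM1 and dim in NM11 cells.

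Several signalling and adhesion genes had ratios of this size. *Selp*, the leukocyte-binding selectin of platelets and endothelium, read 2293 against 25.1, and *Bmp2*, a bone morphogenetic ligand, read 2259.9 against 26.9. *Gngt2*, a G-protein subunit, stood at 82.9-fold, *Myct1* at 64.5-fold and the receptor gene *Pilrb1* at 67.7-fold. The NM11 signals of *Selp*, *Bmp2*, *Myct1* and *Pilrb1* were near the lowest well-above-background signal, so the size of these ratios is uncertain. Over the alternatives *Myct1* ran from 17.0- to 97.0-fold and *Pilrb1* from 16.2- to 102-fold. *Notch4*, the endothelial Notch receptor, read 3808 against 54.4 on its brighter probe (log2 6.13), while its other probe was dim in LuM1 cells and gave only a lower limit, at least 0.39. *S100a8*, a calcium-binding alarmin of neutrophils, read 18268 against 287 (63.6-fold), while its usual partner *S100a9* was not well above background in either subline.

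*Abcg1* stood among these leading genes. Its signal was 6139.6 in LuM1 and 97.6 in NM11 cells, a ratio of 62.9-fold (log2 5.98 ± 0.21), and Colon26 cells read 1122, between the sublines. NM11 cells were thus the low line for *Abcg1*, below the parent. The promoter table holds no entry for *Abcg1*.

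For some genes the LuM1 array alone gave a signal well above background, so that their ratio to NM11 cells has a lower limit. *Pf4*, which encodes platelet factor 4, a chemokine of megakaryocytes, read 84791 in LuM1 cells, a bright signal on that array, and 4.15 in NM11 cells, not well above background. It was at least 4333-fold higher, and the NM11 level cannot be separated from background. *Myo1g*, a membrane-bound myosin of blood cells, read 15221 (at least 778-fold), and *Itgb3*, the beta3 integrin chain of platelets and osteoclasts, read 6625 (at least 339-fold). *Epas1*, which encodes the hypoxia-inducible factor HIF-2alpha, read 2919 against 4.28 and was at least 149-fold higher. *Ak3*, *Sncg*, *Srgn*, *Trp53i11* and the near-identical pair *Selenbp1* and *Selenbp2* followed, with lower limits from 125- to 150-fold. In Colon26 cells *Pf4*, *Myo1g*, *Itgb3*, *Epas1*, *Ak3*, *Srgn* and *Trp53i11* were near background too.

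Genes far lower in LuM1 cells were led by matrix genes. *Col1a2*, a chain of type I collagen, the main fibrillar collagen, read 49.6 in LuM1 and 85275 in NM11 cells, or 1719-fold lower (log2 -10.75 ± 0.25), and Colon26 cells read 59896. *Timp3*, the matrix-bound inhibitor of metalloproteinases, read 32.8 and 29742, or 906-fold lower, with at most -9.72 on the log2 scale on its other probe, which was not well above background in LuM1 cells. Both genes were bright in NM11 and Colon26 cells and near the lowest well-above-background signal of the LuM1 array, 20.1. *Ifitm1*, an interferon-inducible membrane protein that blocks virus entry, read 40.0 against 15731 (393-fold lower). *Fgf7*, a growth factor that fibroblasts supply to epithelium, read 48.7 against 7974 (164-fold lower), and *Thbs1*, a matrix glycoprotein that blocks vessel growth, read 45.6 against 5358 (118-fold lower).

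The *Col1a2* promoter is shown as that of the leading gene on the lower side, by the same window of RefSeq, GRCm38.p6, chr6:4505368-4505667, plus strand, 5′ to 3′. It holds no capitals because neither searched motif, TGANTCA or the TEAD motif GGAATG, was found in it on either strand.
*Col1a2*: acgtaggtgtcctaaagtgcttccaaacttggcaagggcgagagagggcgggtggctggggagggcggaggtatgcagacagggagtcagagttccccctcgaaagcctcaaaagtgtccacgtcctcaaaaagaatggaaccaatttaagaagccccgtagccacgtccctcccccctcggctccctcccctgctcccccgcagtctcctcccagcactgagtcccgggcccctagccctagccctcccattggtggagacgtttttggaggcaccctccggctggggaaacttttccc

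Other genes on the lower side belonged to secretion and signalling. *Il1rl1*, which encodes the receptor of interleukin-33 and its soluble decoy form, read 696 in LuM1 and 60467 in NM11 cells (86.9-fold lower), with Colon26 cells at 3273, and its other probes gave a log2 ratio of -6.10 and a limit of at most -4.90. *Pmepa1*, a feedback inhibitor of TGF-beta signalling, was 93.8-fold lower. *Lgals7*, a galectin, was 115-fold lower, *Gask1b* 109-fold, the glutamate receptor gene *Gria1* 64.3-fold and the secreted carbonic anhydrase gene *Car6* 62.2-fold. *Sox2*, a pluripotency factor, read 21.1 against 1202, or 57.0-fold lower. *Loxl1*, which cross-links elastin, *Ccdc80* and *Mgp*, an inhibitor of calcification, were from 50.5- to 55.4-fold lower.

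A further set was not well above background in LuM1 cells. *Irx1*, a homeobox factor, read 12989 in NM11 cells and was at least 645-fold lower in LuM1 cells, and *Bcl6b*, a transcriptional repressor, read 10662 and was at least 529.6-fold lower. *Fbln5*, which organises elastic fibres, read 5206 and was at least 259-fold lower. *Magohb*, *Itgbl1*, *Myo1d*, *Ces1g*, *Aspa*, *Bicc1* and *Ccl20* followed, with lower limits from 80.5- to 229-fold. Of these genes, *Bicc1* and *Ccl20* were near background in the parent line and the others were well above it there.

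**Figure D2:**
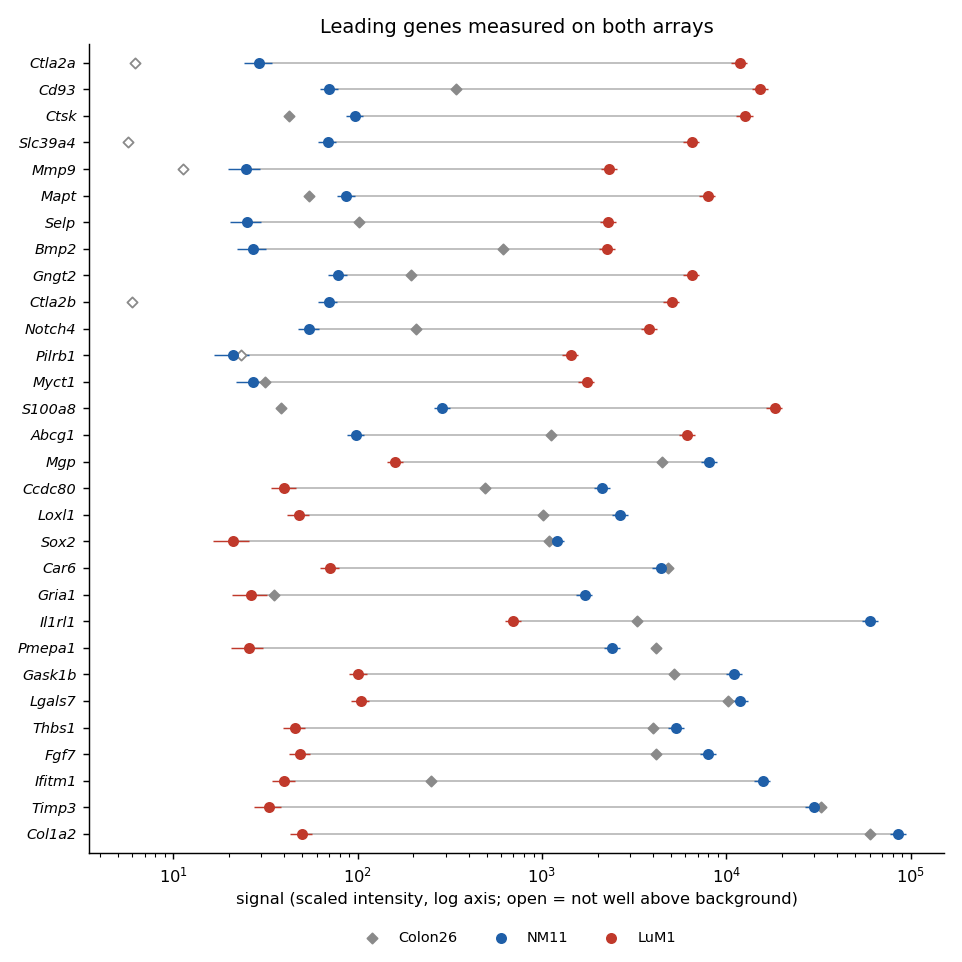
Signals (scaled intensity, log axis) of the 15 genes with the largest ratio in each direction among genes well above background on both arrays, in LuM1 (red), NM11 (blue) and Colon26 (grey) cells, with the scanner error as bars on the sublines. *Ctla2a* at the top has 11823 against 29.3, and *Col1a2* at the bottom 49.6 against 85275. Open marks are signals not well above background.

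Matrix genes differed in both directions. Of 28 collagen chains tested, 5 were at least 2-fold higher and 8 lower in LuM1 cells (17.9% and 28.6%, beside 11.2% and 8.49% of all genes), with a median log2 ratio of -0.20 over those measured on both arrays. That median lay from 0.17 below to 0.01 above that of all genes over the alternatives, and was 0.39 with scaling to *Hprt*, so the list has no overall direction. The higher chains included some of basement membrane, namely *Col4a1* (5444 against 1113, 4.89-fold), *Col4a2* (3.28-fold) and *Col18a1*, the precursor of endostatin (20399.9 against 1526, 13.4-fold). Beside *Col1a2*, the lower chains included the fibrillar chains *Col1a1* (2247 against 6045, log2 -1.43) and *Col3a1* (log2 -1.18). *Col4a5*, also a chain of basement membrane, and *Col12a1* were at least 21.0- and 17.6-fold lower. The partner chains of type I collagen therefore differed by very unequal amounts, with *Col1a1* still bright in LuM1 cells.

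Among matricellular and adhesive glycoproteins, 4 of 22 were higher and 8 lower (18.2% and 36.4%, beside the same shares of all genes). The lower ones were *Thbs1*, *Thbs2* (256 against 6687, log2 -4.71), *Fbln5*, the tenascin C gene *Tnc* and *Ccn1*, *Ccn3*, *Ccn4* and *Ccn5* of the CCN family. *Ccn4* read 8.70, not well above background, against 1086, and its other, dim probe gave only a limit, at most -0.66 on the log2 scale. The higher ones included *Tnxb*, which encodes tenascin X (9.68-fold), and *Ecm1* (21729 against 7246, 3.00-fold). *Fn1*, *Sparc* and *Spp1*, which encode fibronectin, osteonectin and osteopontin, had some of the highest signals in both sublines and lay within 2-fold.

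Matrix metalloproteinases leaned towards LuM1 cells. Of 14 tested, 6 were at least 2-fold higher and 0 lower, or 42.9% higher where all genes gave 11.2%, and their median log2 ratio was 0.54, 0.64 above the median of all genes and from 0.20 to 0.65 above it over the alternatives. *Mmp3*, stromelysin 1, read 103171 in LuM1 and 29944 in NM11 cells (3.45-fold), where Colon26 cells read 58.6, so both sublines were far above the parent. *Mmp10*, stromelysin 2, read 2708 against 369 (7.35-fold), and *Mmp13*, a collagenase, read 6283 against 1609 (log2 1.97). *Mmp16*, a membrane-bound member, was at least 30.9-fold higher, and *Mmp1b* read 192 against 77.5. The gelatinase *Mmp2* (log2 -0.16) and the membrane-bound *Mmp14* (log2 0.70) lay within 2-fold.

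The *Mmp3* promoter is shown because *Mmp3* is the brightest of these genes and the paper's introduction names it from earlier work on LuM1 cells. The window is again 250 bases before to 50 after the start, from RefSeq on GRCm38.p6, chr9:7445572-7445871, plus strand. Capitals mark TGANTCA.
*Mmp3*: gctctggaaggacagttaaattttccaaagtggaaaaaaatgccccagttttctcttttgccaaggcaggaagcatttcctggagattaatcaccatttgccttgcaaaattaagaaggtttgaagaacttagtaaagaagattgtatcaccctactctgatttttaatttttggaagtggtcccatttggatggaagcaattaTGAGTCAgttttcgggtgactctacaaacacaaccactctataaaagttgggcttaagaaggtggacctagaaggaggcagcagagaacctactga

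Inhibitors of extracellular proteases, a list wider than the inhibitors of metalloproteinases, did not share 1 direction. *Timp1* read 24826 in LuM1 and 67183 in NM11 cells (2.71-fold lower) and *Serpinf1*, an inhibitor of vessel growth, was 2.27-fold lower, whereas *Timp2* lay within 2-fold (log2 -0.48). Higher in LuM1 cells were *Slpi*, a secreted inhibitor of leukocyte proteases, at 96502 against 22868 (log2 2.08), the tissue factor inhibitor *Tfpi* at 12.6-fold, *Cst6* at 9.13-fold, *Reck* (log2 1.73) and *Spint1* at a limit of at least 18.9-fold. In all, 6 of 14 inhibitors were higher and 3 lower (42.9% and 21.4%, beside 11.2% and 8.49% of all genes). Of 9 cathepsins tested, *Ctsk* and *Ctso* (2.57-fold) were at least 2-fold higher (22.2%, beside 11.2% of all genes) and none lower. The abundant *Ctsb*, *Ctsd* and *Ctsl* had log2 ratios of 0.71, 0.54 and -0.05.

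Chemokines and cytokines differed in both directions. Of 27 tested, 12 were at least 2-fold higher and 7 lower in LuM1 cells, against 11.2% and 8.49% of all genes. Their median log2 ratio was 0.56, 0.67 above that of all genes, and lay from 0.07 to 0.87 above it over the alternatives. Chemokines that draw neutrophils were on the higher side, with *Cxcl1* at 102407 in LuM1 and 21436 in NM11 cells (log2 2.26), *Cxcl5* at 47428 and 13581 (log2 1.80), and *Cxcl3* at least 23.5-fold higher, while the dim *Cxcl2* lay within 2-fold (log2 0.75). *Csf3*, the growth factor of neutrophils, read 831 against 181 (log2 2.20), and *Il6* read 4770.3 against 1969 (log2 1.28). *Ccl3* (32.4-fold), *Ccl7* (log2 1.77), *Ccl8* (log2 2.54), *Cxcl16* (log2 2.46) and *Tslp* (18.4-fold), an epithelial alarmin, were also higher.

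On the lower side stood *Cxcl10* and *Ccl5*, which draw T cells and are induced by interferon. *Cxcl10* read 201 in LuM1 and 3355 in NM11 cells (16.7-fold lower), and *Ccl5* read 212 and 2961 (log2 -3.80). *Ccl9* was 14.1-fold lower, *Ccl20* was at least 80.5-fold lower, and *Il33*, the ligand of the receptor that *Il1rl1* encodes, read 62.3 against 749 (log2 -3.59), so ligand and receptor were both lower in LuM1 cells. *Csf1*, the growth factor of macrophages, read 6067 against 25517 (log2 -2.07). *Ccl2*, the brightest of the list in NM11 cells, lay within 2-fold (log2 0.31). Colon26 cells read 45.9 for *Cxcl1* and 6.09, not well above background, for *Cxcl5*, below both sublines.

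**Figure D3:**
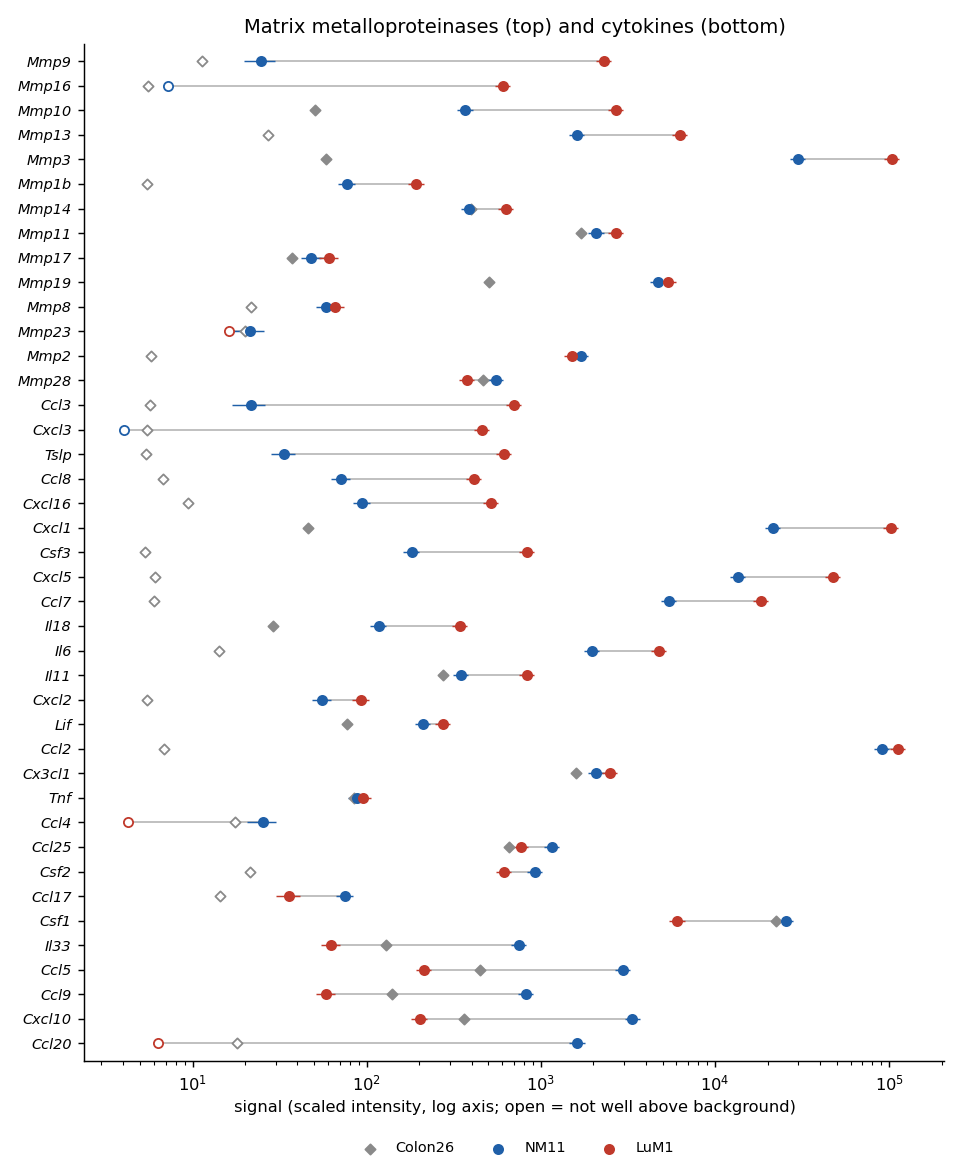
Signals (scaled intensity, log axis) of the 14 tested matrix metalloproteinases (top) and 27 tested chemokines and cytokines (bottom) in LuM1 (red), NM11 (blue) and Colon26 (grey) cells, each block ordered by its ratio, with scanner error bars on well-above-background signals and open marks for the rest. *Mmp9* leads the first block with 2311 in LuM1 against 24.7 in NM11 cells, and *Ccl20* ends the second with 6.37 against 1620.

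Interferon-stimulated genes were lower in LuM1 cells as a group. All 32 on the array were well above background in NM11 cells, and 21 of them, 65.6%, were at least 2-fold lower in LuM1 cells where all genes gave 8.49%, with none at least 2-fold higher. The 30 measured on both arrays all had a log2 ratio below 0, from -8.62 (*Ifitm1*) to -0.12 (*Herc6*), and their median of -1.33 lay 1.22 below the median of all genes. Over the alternatives the median stayed from 1.09 to 1.57 below that of all genes, and from 16 to 23 members were lower. This list had the lowest median of the 36 lists described.

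The antiviral enzymes and sensors had these signals. *Oas2*, an oligoadenylate synthetase, read 135 in LuM1 and 2126 in NM11 cells (15.7-fold lower), and *Oasl1* read 250 and 3418 (13.7-fold lower). *Isg15*, a ubiquitin-like modifier, read 2384 against 13999.5 (log2 -2.55), and *Ifit1*, which binds viral RNA, read 61.3 against 431 (log2 -2.81). *Rsad2*, which encodes viperin, was not well above background in LuM1 cells (log2 at most -3.24). *Zbp1*, a sensor of left-handed nucleic acid, had a log2 ratio of -2.40.

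The factors that transmit the interferon signal differed less. *Irf7* read 2470 against 8122 (log2 -1.72) and *Irf9* 1139.7 against 2509 (log2 -1.14), while *Stat2* (log2 -0.97) lay within 2-fold. Colon26 cells read less than LuM1 cells for 26 of the 32 genes and less than NM11 cells for 31, with *Oas2* at 49.9 and *Irf7* at 397, so NM11 cells were the highest of the 3 lines for 31 of them. MHC class I and antigen-processing genes, which interferon also induces, did not follow, since none of 17 differed by 2-fold. *H2-K1* (log2 0.55) and *H2-D1* (log2 0.78), which are near-identical and may share signal, were somewhat brighter in LuM1 cells, and *Tap1* had a log2 ratio of 0.06.

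**Figure D4:**
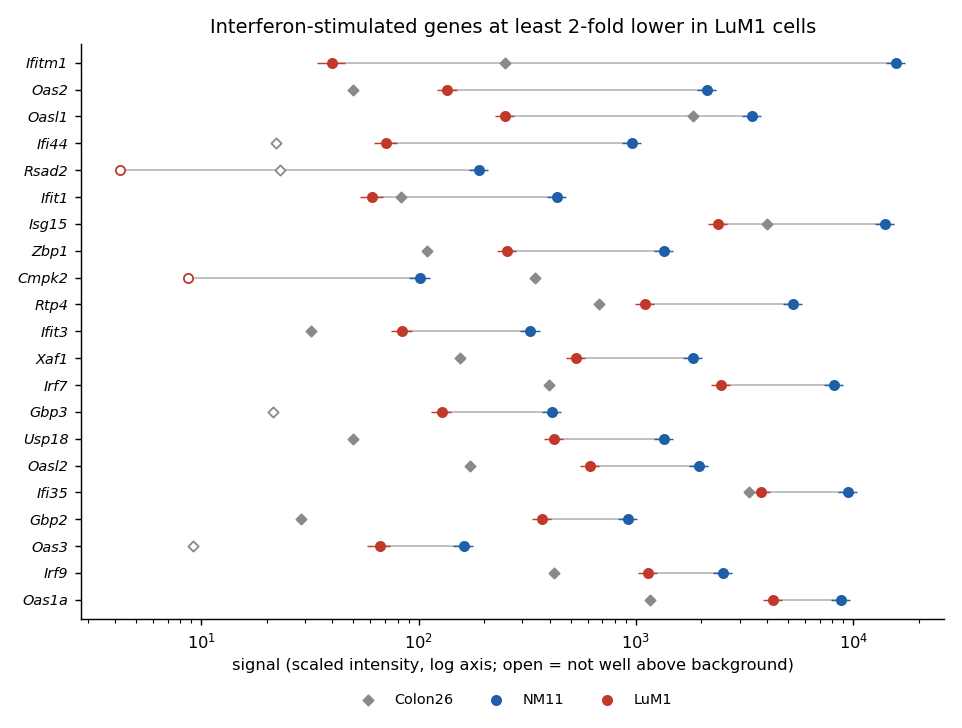
Signals (scaled intensity, log axis) of the 21 interferon-stimulated genes that were at least 2-fold lower in LuM1 cells, in LuM1 (red), NM11 (blue) and Colon26 (grey) cells, ordered by their ratio, with scanner error bars on well-above-background signals of the sublines. The NM11 mark lies to the right of the LuM1 mark in each, from 15731 against 40.0 for *Ifitm1* to 8740.2 against 4286 for *Oas1a*, and open marks are signals not well above background.

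Secreted growth factors differed in both directions. Of 25 tested, 4 were higher and 7 lower in LuM1 cells (16% and 28.0%, beside 11.2% and 8.49% of all genes). Among platelet-derived growth factors, *Pdgfb* read 1336 in LuM1 cells and was not well above background in NM11 cells (at least 68.3-fold higher), *Pdgfa* was 3.01-fold higher at 14633 against 4863, and *Pdgfc* read 1257 in NM11 cells and was at least 62.5-fold lower in LuM1 cells. Among ligands of the EGF receptor family, *Tgfa* (at least 10.2-fold) and *Areg* (4227 against 1441, log2 1.55) were higher and *Nrg1* (log2 -1.72) and *Btc* (at most -1.71 on the log2 scale) lower. *Fgf21* was at least 22.1-fold lower. *Vegfa*, read by 4 probes, lay within 2-fold on its brightest (log2 0.21). Its other probes gave log2 ratios of 0.11, 0.33 and, on a dim probe (81.8 against 32.1), 1.35.

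Receptor tyrosine kinases had no overall direction. Of 32 receptor tyrosine kinases tested, 6 were higher and 5 lower (18.8% and 15.6%, beside 11.2% and 8.49% of all genes), and their median log2 ratio of -0.10 was close to that of all genes. *Egfr* read 574 in LuM1 and 69.3 in NM11 cells (8.29-fold), and its other probes gave lower limits of 1.97 and 2.03 on the log2 scale. *Flt1*, a VEGF receptor, read 648 against 47.6 (13.6-fold), *Pdgfra* was 3.08-fold higher and *Epha1* 5.62-fold. *Ephb2* read 218 against 1398 (6.41-fold lower, with -0.63 on the log2 scale on its other probe), and *Met*, the receptor of hepatocyte growth factor, was 3.11-fold lower at 1245 against 3876.

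The chains of the laminin-binding integrin alpha6beta4 were higher in LuM1 cells. *Itga6* read 19845 in LuM1 and 7444 in NM11 cells (2.67-fold, with log2 ratios of 1.40 and 1.48 on its other probes), and its partner *Itgb4* read 7749.8 and 1973 (3.93-fold). With *Itgb3* these were the 3 integrins of 19 tested that were at least 2-fold higher (15.8%, near the 11.2% of all genes), and none was lower. The main matrix-binding chains *Itgb1* (log2 0.08) and *Itgav* (log2 -0.31) lay within 2-fold.

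Contractile genes and genes linked to YAP and TEAD leaned towards NM11 cells. Of 17 contractile genes tested, 5 were lower in LuM1 cells (29.4%, beside 8.49% of all genes) and 3 higher (17.6%, beside 11.2%). The lower ones were *Cnn2* (1031 against 4852, 4.71-fold), *Tpm1* (2585 against 10845, 4.20-fold), *Tpm2* (2.76-fold), *Actn1* (log2 -1.05) and *Vcl*, vinculin (log2 -1.21). *Mylk*, which encodes myosin light chain kinase, was 4.81-fold higher, and *Des* and *Myh11*, both dim, were higher by a bound. The median log2 ratio of the list was -0.46, 0.35 below that of all genes. *Acta2*, the smooth muscle actin, had 10708 and 12569, within 2-fold.

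Of 26 YAP and TEAD genes tested, 5 were lower and 1 higher (19.2% and 3.85%, beside 8.49% and 11.2% of all genes). The lower ones were *Ccn1* (1621 against 7161, 4.42-fold), *F3*, which encodes tissue factor (132 against 1929.9, 14.7-fold), *Gadd45b* (369 against 5735, 15.6-fold), *Amotl1* (log2 -1.77) and *Amotl2* (log2 -1.78). *Nt5e*, the adenosine-producing ectoenzyme CD73, was 12.0-fold higher. *Yap1* itself had a log2 ratio of -0.63 and the target *Ankrd1* one of 0.23, and the median of the list was 0.32 below that of all genes. Both medians, of this list and of the contractile list, were above 0 with scaling to *Hprt* and stayed below that of all genes under each alternative run.

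TGF-beta pathway genes were mostly alike. Of 24 tested, 4 were lower (16.7%, beside 8.49% of all genes), of which *Pmepa1* and *Smad7* (192 against 459.5, 2.40-fold) are feedback genes that the pathway induces, and *Inhba* (3.44-fold) and *Tgfb3* (log2 -1.16) are ligands. *Tgfb1* was 2.18-fold higher at 974 against 448. The receptors *Tgfbr1* and *Tgfbr2* had log2 ratios of 0.90 and -0.68, and *Smad2*, *Smad3* and *Smad4* lay between -0.25 and 0.05.

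The labelled origin of the cells was checked against markers of colon epithelium. Of 25 colon epithelial identity genes, 10 passed the background limit in 1 or both sublines, and *Vil1*, *Muc2*, *Fabp1*, *Slc26a3*, *Cdh17*, *Hnf4a* and *Atoh1* were in neither. *Cdx2*, the intestinal homeobox factor, read 232 in LuM1 and 167 in NM11 cells, and *Gpa33* read 814 and 1545. Of 34 epithelial junction and keratin genes, 14 were tested, and E-cadherin (*Cdh1*), *Krt18*, *Krt19* and *Cldn3* were not well above background in either. *Epcam* was just above it in LuM1 cells (28.0, a limit of 1.43-fold). The sublines therefore lacked most defining epithelial transcripts on these arrays.

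Of the 14 epithelial genes tested, 4 were at least 2-fold higher and 1 lower (28.6% and 7.14%, beside 11.2% and 8.49% of all genes). *F11r*, a tight-junction adhesion molecule, read 245 in LuM1 cells and was at least 12.5-fold higher, *Pkp2*, a desmosome protein, was at least 5.02-fold higher, *Lsr* was 3.40-fold higher and *Krt8* had 108 against 37.1 (log2 1.54). *Krt20* was 2.88-fold lower. These are low signals, and the list's median lay from 0.38 below to 0.07 above that of all genes over the alternatives, so the list as a whole has no settled direction.

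Mesenchymal genes were abundant in both sublines. *Vim*, vimentin, read 80065 in LuM1 and 98371 in NM11 cells, and *Cdh2*, N-cadherin, read 4742 and 3625. Of 21 mesenchymal and fibroblast genes tested, 5 were higher (23.8%, beside 11.2% of all genes), namely *Foxc2* (at least 9.70-fold), *Pdgfra*, *Dcn* (27503 against 9599, 2.87-fold), *Pdpn* (39225 against 14605, log2 1.43) and *Fap* (log2 1.15). *Twist2* (3.17-fold) and *Loxl1* were lower. *Zeb1*, *Zeb2*, *Snai1*, *Snai2* and *Twist1*, which drive the epithelial-mesenchymal transition, lay between -0.83 and 0.58 on the log2 scale.

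Stem cell markers pointed both ways, with 5 of 19 tested higher and 4 lower (26.3% and 21.1%, beside 11.2% and 8.49% of all genes). Beside *Sox2*, the lower genes were *Cd44* (3317 against 9723, log2 -1.55), *Dclk1* (5.04-fold) and *Lin28b* (3.44-fold), and the higher ones were *Abcg2*, *Itga6*, *Alcam* (3984 against 1257, 3.17-fold), *Sox9* (2.87-fold) and *Nanog* (log2 1.02, 219.9 against 108). *Prom1*, *Lgr5*, *Cd24a* and *Kit* were not well above background in either subline.

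Positional identity was close but not equal. Of 22 Hox genes tested, 3 were higher and 2 lower in LuM1 cells (13.6% and 9.09%, near the shares of all genes), and 18 of the 20 measured on both arrays had a log2 ratio above 0, with a median of 0.60, 0.71 above that of all genes and from 0.09 to 0.71 above it over the alternatives. *Hoxb8* was 3.18-fold higher at 799.6 against 251, *Hoxa3* 2.98-fold and *Hoxa7* 2.52-fold. *Hoxb9*, next to *Hoxb8* in its cluster, was 2.04-fold lower at 694 against 1414, with a log2 ratio of -1.06 on its other probe, and *Hoxc8* was at least 3.64-fold lower. Of 9 imprinted genes tested, *Peg10* (at least 8.69-fold) and *Igf2r* (2696 against 1070.4, 2.52-fold) were higher (22.2%, beside 11.2% of all genes). None was lower. Of 12 neuronal cytoskeleton genes tested, 1 was higher and 4 lower (8.33% and 33.3%, beside 11.2% and 8.49% of all genes). *Mapt* was the higher one. *Nefm*, a neurofilament chain, read 171 against 1718 (10.0-fold lower), and *Nefl*, *Map1b* and *Stmn3* were also at least 2-fold lower.

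Several leading genes on the higher side mark blood vessels, myeloid cells or osteoclasts, so the whole marker lists were read. The lists hold the leading genes that prompted this, such as *Cd93*, *Myct1*, *Ctsk* and *Itgb3*. These genes count again in the shares below, which are therefore descriptions only. Of 20 endothelial markers, 9 were tested and 5 were higher (55.6%, beside 11.2% of all genes), none lower, namely *Cd93*, *Myct1*, *Eng* (1720.4 against 76.2, 22.6-fold), *Flt1* and *Plvap* (639 against 104, log2 2.62). Yet *Cdh5*, *Kdr*, *Tek*, *Tie1*, *Emcn*, *Vwf* and *Erg*, which define endothelium, were not well above background in either subline, and *Pecam1* was dim, with a log2 ratio of -0.56. The summed signal of the list was 83239 and 75661, of which *Cd34* held 62109.9 and 74728. The list's median log2 ratio of 2.62 ran from 0.09 to 3.21 over the alternatives, the lowest of which counted dim members.

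Of 18 myeloid markers, 8 were tested and 4 were higher (50%, beside the same 11.2%), none lower. *Cd68*, a lysosomal protein of macrophages, read 5251 in LuM1 and 299 in NM11 cells (17.5-fold), *Cd14* read 4175 and 988 (log2 2.08), and *Lyz2* and *Aif1* were dim and higher by a bound. *Ptprc*, which encodes the leukocyte antigen CD45, *Adgre1*, *Spi1*, *Tyrobp*, *C1qa* and *Laptm5* were not well above background in either subline. The summed signal was 17278 in LuM1 and 6305 in NM11 cells.

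Of 10 osteoclast markers, 8 were tested and 5 were higher (62.5%, beside 11.2%), none lower. They were *Itgb3*, *Ctsk*, *Atp6v0d2* (195, at least 9.98-fold), *Acp5* (107, at least 5.48-fold) and *Nfatc1* (327 against 139, log2 1.23). *Itgb3*, *Atp6v0d2* and *Acp5* were tested only through their LuM1 signal, since they were not well above background in NM11 cells. *Calcr* and *Dcstamp* were not well above background in either subline, and the summed signal was 20336 in LuM1 and 735.5 in NM11 cells, most of it from *Ctsk* and *Itgb3*. Of 12 lymphocyte markers, 5 were tested, of which 1 was at least 2-fold higher and 1, *Lck*, lower (20% each, beside 11.2% and 8.49% of all genes). *Cd3g*, *Cd8a*, *Ms4a1* and *Cd2* were not well above background. The part of other cell types in these signals was not tested beyond these levels.

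Of 51 ABC transporters on the array, 35 were tested, 6 had at least 2-fold more signal in LuM1 cells and none had less. *Abcg2* read 789 in LuM1 cells and 3.87, not well above background, in NM11 cells, and was at least 40.3-fold higher. Beside *Abcg1*, the others were *Abca8b* (199.5, at least 10.1-fold), *Abcb9* (322 against 71.9, log2 2.16), the lipid pump of lamellar bodies *Abca3* (3701 against 1163, log2 1.67) and *Abca2* (log2 1.20). The drug pumps *Abcb1a*, *Abcb1b* and *Abcc1* had log2 ratios of 0.45, -0.62 and 0.50. The share of higher members, 17.1%, stands beside 11.2% of all genes.

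Among genes of sterol handling, those of cholesterol synthesis leaned towards NM11 cells. *Nr1h3*, which encodes the liver X receptor LXRalpha, read 650.3 in LuM1 and 208 in NM11 cells (3.12-fold). *Abcg1*, its known target, was the other of 14 LXR genes that was at least 2-fold higher. Their share, 14.3%, is near the 11.2% of all genes. The further targets *Abca1* (log2 0.54), *Mylip* (0.19) and *Srebf1* (-0.09) lay within 2-fold. All 22 cholesterol synthesis genes measured on both arrays had a log2 ratio below 0, with a median of -0.62, 0.52 below that of all genes and from 0.44 to 0.69 below it over the alternatives. *Fdps* (21947 against 47837, 2.18-fold), *Ebp* (2.52-fold), *Sc5d* (2.66-fold) and *Lss* (log2 -1.02) were at least 2-fold lower, 17.4% of the 23 tested beside 8.49% of all genes.

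Hypoxia and glycolysis genes leaned towards LuM1 cells, although no oxygen treatment was part of these arrays. Of 35 tested, 8 were higher and 2 lower (22.9% and 5.71%, beside 11.2% and 8.49% of all genes), with a median log2 ratio of 0.48, 0.59 above that of all genes and from 0.43 to 0.69 above it over the alternatives. *Hif1a*, the hypoxia-inducible factor HIF-1alpha, read 10673 in LuM1 and 5239 in NM11 cells (2.04-fold), close to the 2-fold line and within the scanner error of it. *Egln3*, an oxygen-sensing hydroxylase and HIF target, read 723 and was at least 37.0-fold higher. *Bnip3l* (log2 1.21), *Eno2* (1.30), *Pfkfb4* (1.28), *Ankrd37* (1.26) and *Pfkfb3* (1.36) completed the higher side with *Epas1*.

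The main glycolytic enzymes did not differ by 2-fold. *Ldha* read 151463 and 165105 and *Pgk1* 204520 and 219212. *Car9*, the carbonic anhydrase most used as a hypoxia marker, read 110 in LuM1 and 563 in NM11 cells (5.12-fold lower) with Colon26 cells at 6264, and *Adm*, adrenomedullin, was 3.15-fold lower. Neither of the 2 probes of *Epo* was well above background in LuM1 or NM11 cells.

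Proliferation genes were slightly lower in LuM1 cells. Of 36 mitosis genes, 33 had a log2 ratio below 0, 8 were at least 2-fold lower (22.2%, beside 8.49% of all genes) and none higher, with a median of -0.65. Of 42 DNA replication genes, 38 had a ratio below 0, 4 were at least 2-fold lower (9.52%, near the share of all genes) and none higher, with a median of -0.56. *Ccna2*, cyclin A2, read 5511 in LuM1 and 13606 in NM11 cells (2.47-fold lower), *Birc5*, survivin, was 2.37-fold lower and *Cdc6*, which licenses origins, 2.28-fold. *Mki67*, the Ki67 antigen, read 7628 and 8213, a log2 ratio of -0.11.

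The size of this shift depends on the scaling. With scaling to *Hprt* the medians were -0.06 for mitosis and 0.03 for replication, whereas relative to all genes they stayed from 0.43 to 0.72 and from 0.34 to 0.62 lower. Cytosolic ribosomal proteins, 77 of 78 with a log2 ratio below 0, had a narrow spread, from -0.86 to 0.24. Their median of -0.46 was above 0 with scaling to *Hprt*. It lay 0.35 below that of all genes, and from 0.08 to 0.53 below it over the alternatives, so the size of this shift is not settled. None of them differed by 2-fold.

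The p53 list had a median close to that of DNA replication genes. Its median log2 ratio was -0.54, 0.44 below that of all genes and from 0.30 to 0.48 below it over the alternatives, though 0.05 with scaling to *Hprt*, and 4 of 22 (18.2%) were at least 2-fold lower and 2 (9.09%) higher, beside 8.49% and 11.2% of all genes. *Aen* (7045 against 20366, 2.89-fold), *Zmat3* (2.85-fold) and *Plk3* (log2 -1.45) were lower in LuM1 cells, and *Fas*, the death receptor (3276 against 1381, 2.37-fold), was higher. *Cdkn2b*, a cell-cycle inhibitor, was dim and at least 4.84-fold higher. *Eda2r* was 4.98-fold lower on its brightest probe, but another of its probes gave a log2 ratio of 1.23, so its direction is uncertain. *Trp53* had a log2 ratio of -0.71 and *Cdkn1a* one of 0.14. Of 20 NRF2 genes, *Osgin1* (2.21-fold higher) differed by 2-fold and the others did not, so 5% were higher, beside 11.2% of all genes.

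Genes of extracellular vesicles were mostly alike as well. Of 25 tested, 3 were higher (12.0%, near the 11.2% of all genes) and none was lower. The higher ones were *Cd82* (15882 against 6402, 2.48-fold), with *Cd53* and *Smpd2*, both dim in LuM1 cells and not well above background in NM11 cells. *Cd9* read 13258 and 7104 (1.87-fold), *Cd63* had a log2 ratio of -0.71 and *Cd81* one of 0.43. Among S100 genes the very bright *S100a4* (297722 and 345490) and *S100a6* lay within 2-fold, *S100a13* (2.04-fold) and *S100b* (at least 3.03-fold) were higher beside *S100a8*, and *S100a3* (3.01-fold) and *S100a5* (at least 4.62-fold) were lower.

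**Figure D5:**
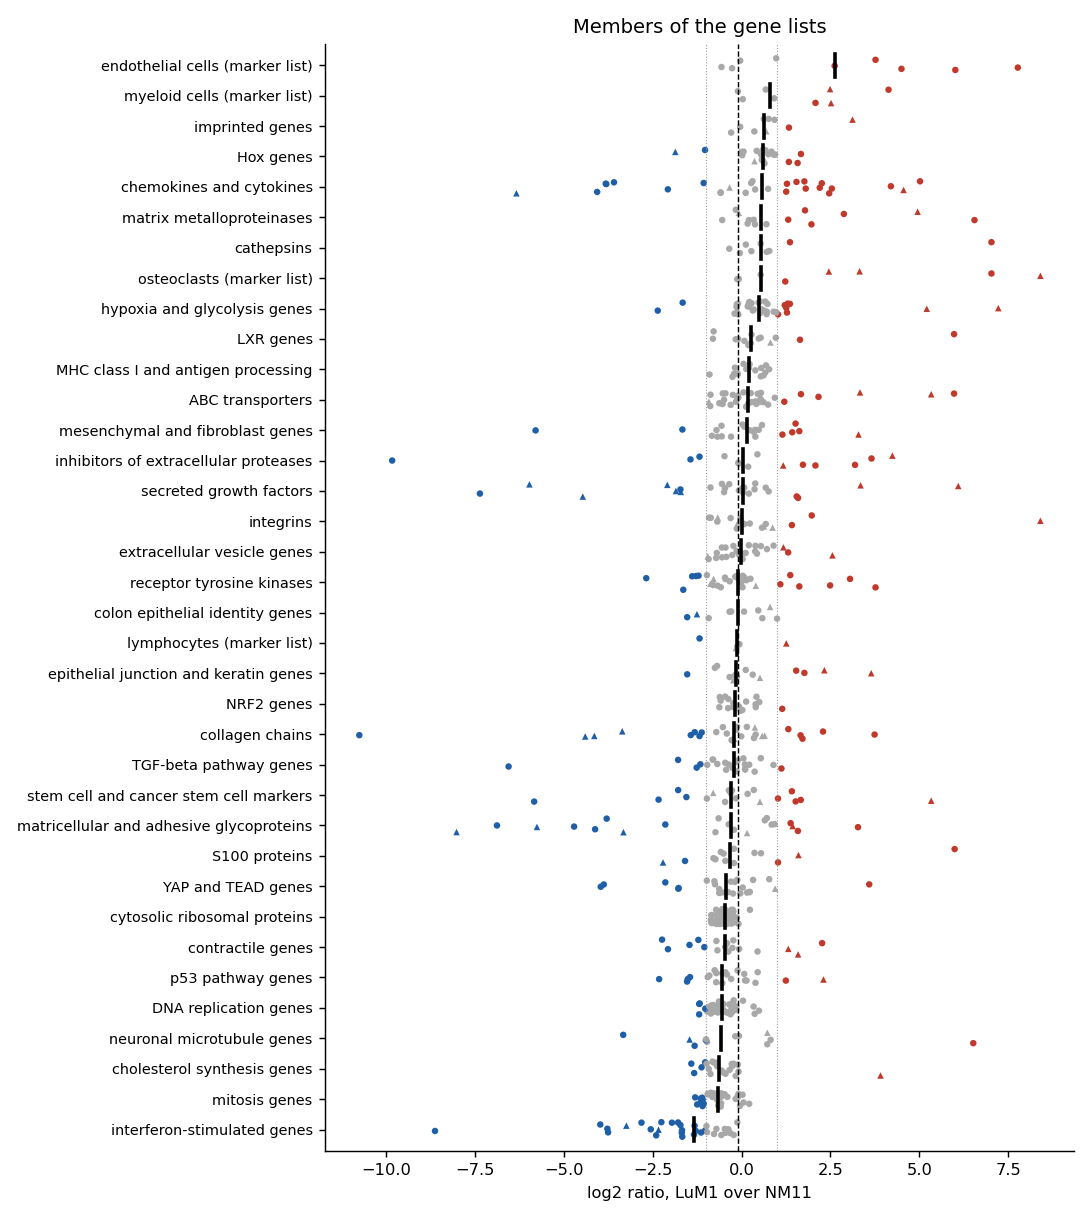
Log2 ratio of LuM1 over NM11 for the members of 36 gene lists, ordered by list median (black bars, over members measured on both arrays). Circles were measured on both arrays and triangles are bounds, red and blue are at least 2-fold higher and lower in LuM1 cells, the dashed line is the median of all genes (-0.11) and dotted lines mark 2-fold. Interferon-stimulated genes lie lowest with a median of -1.33 and endothelial markers highest with 2.62.

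The ratio also varied along the genome, by the order of genes in RefSeq GRCm38.p6. The median log2 ratio per chromosome ran from -0.37 on chromosome 11 and -0.35 on chromosome 9 to 0.15 on chromosome 6. On chromosome 6, 18.4% of tested genes were at least 2-fold higher, and on chromosome 14, 16.1% were, beside 11.2% of all genes. On chromosome 9, 14.5% were lower, and on chromosome X, 14.3% were, beside 8.49% of all genes. Over 505 blocks of 25 neighbouring genes the medians ran from -0.90, in the block on chromosome 10 that ends at *Gadd45b*, to 0.56, and 11 blocks lay more than 0.5 above the median of all genes and 9 below it.

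Some neighbouring genes were called the same way, and 30 runs held 4 or more consecutive tested genes in 1 direction. Of all tested genes, 19.7% were called in either direction. How many runs would arise from that share alone was not tested. On chromosome 11 a run joined *Mapt*, *Kansl1* (log2 3.77), *Cdc27* (3.84), *Myl4* (2.59) and *Itgb3*, all higher in LuM1 cells, with functions as different as a neuronal microtubule protein and an integrin. The chemokine cluster of chromosome 5 gave a run of *Cxcl5*, *Ppbp* (log2 2.11), *Pf4*, *Cxcl3* and *Cxcl1*, and the metalloproteinase cluster of chromosome 9 gave *Mmp13*, *Mmp1b*, *Mmp3* and *Mmp10*. On chromosome 6 a run of immune-related GTPases and membrane proteins held *Gimap9* (log2 4.87), *Gimap4* (at least 4.16), *Gimap6* (at least 3.40), *Tmem176b* (1.08) and *Tmem176a* (1.48).

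A run of complement genes, *C1ra* (log2 1.14), *C1s1* (2.02), *C1rb* (1.07) and *C1s2* (2.07), also lay on chromosome 6, and consists of near-identical pairs. *Ly6a* (log2 2.17), *Ly6c1* (2.75), *Ly6c2* (2.76) and *Ly6f* (3.99) on chromosome 15 are likewise close copies whose probes may share signal. The longest run without such copies, 7 genes on chromosome 17, went from *Adgrf5* (at least 5.27) to *Cyp39a1* (1.54) and was higher in LuM1 cells.

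Lower runs were found as well. *Mgl2* (log2 -1.16), the monocarboxylate transporter genes *Slc16a11* (at most -4.40) and *Slc16a13* (at most -5.91), and *Bcl6b* (at most -9.05) stood next to each other on chromosome 11. *Ext1* (log2 -1.23), *Tnfrsf11b*, which encodes the osteoclast inhibitor osteoprotegerin (at most -1.58), *Ccn3* (-4.12) and *Enpp2*, which encodes autotaxin (at most -3.68), formed a run on chromosome 15. The runs were picked after their values were seen and are given as a description. No copy number was measured.

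Promoter windows were at hand for 122 of the 171 named genes. The letters TGANTCA stood, on either strand, in a window of 15 of 63 genes higher in LuM1 cells (23.8%) and of 7 of 51 lower ones (13.7%), where 7.81% of all 32851 windows of 300 bases held them. The letters GGAATG stood in a window of 8 higher genes (12.7%) and of 12 lower ones (23.5%), where 14.7% of all windows held them, and a GGAATG can share its last letters with the first of a TGANTCA. Some genes have several windows, which raises their chance of a match, and the shares are descriptions of these genes alone. *Mmp10*, *Met*, *Cxcl10*, *F3* and *Car9* were among the genes with TGANTCA, and *Ccn1*, *Timp1*, *Tpm1* and *Ccl20* among those with GGAATG.

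Where a gene was read by more than 1 probe, the probes mostly gave the same direction. Of 2838 called genes, 812 had another probe with a ratio or bound, and in 764 of these (94.1%) all other probes were on the same side, while in 533 (65.6%) all were also at least 2-fold that way. In 13 genes, *Eda2r* among them, another probe was at least 2-fold the other way. Probes of 1 gene can read different transcripts and are no replicates of the culture. Probes called by a bound, well above background on 1 array only, occurred in each of 48 areas of the slide but not at an even rate. On the LuM1 array they made up 2.20% of all probes, and from 0.506% to 5.36% by area. On the NM11 array they made up 1.11%, and from 0.255% to 3.13% by area. Whether the position on the slide affected these calls was not tested.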

How the data were processed

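RNA of LuM1, NM11 and Colon26 cells was read on 1 single-colour Agilent array each. The authors extracted spot intensities with Agilent Feature Extraction 11.5.1.1, and the deposited intensity column used here is already background-subtracted. The deposited value table of processed intensities was set against these and equals each array's intensity times a constant (0.829 for LuM1, 0.706 for NM11), and served as an alternative. Other deposited columns, the per-spot flags for detection, saturation and outliers, are not values of expression and carry no unit. No authors' fold changes or p-values were used.

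Outlier spots were left out (74 on the LuM1 and 99 on the NM11 array), repeated spots averaged, and each array scaled to its 75th percentile over non-control spots. Probes were named by accession through RefSeq GRCm38.p6, which matched 58.3% of 56605 probes, and each gene was read by its probe with the highest mean log2 signal. Unmatched probes count only in the probe totals. A few members of the lists are counted but not reported by name here. The array's own annotation is of another build, so no array coordinates are given. Genes at least 2-fold apart were called. Where a probe was not well above background on 1 array, the other array's signal was divided by its signal there, or by that array's lowest well-above-background signal where this was higher, and the result written as "at least".

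The comparison, gene lists and members were chosen with earlier results of these data known. Genes named were the 15 per direction with the largest ratio, the 10 with the largest bound, up to 3 per list and direction, and genes picked from the study's text. Other genes named, including those within 2-fold and those of chromosomal runs, were chosen after their values were seen. Alternatives covered the scaling, background correction (normexp, offset 50), dim probes, choice of probe and threshold. The scripts were tested on simulated data. Python 3.11.15, numpy 2.4.6, pandas 2.3.3, matplotlib 3.10.9, R 4.3.3 and limma 3.58.1 were used. The number of arrays limits the precision.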

Additional observations from a re-analysis of the deposited data

How the results depend on the processing

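Counts of genes at least 2-fold apart depended on scaling and filters. With scaling to *Hprt*, 3599 genes were higher and 498 lower in LuM1 cells (87.8% higher), and 8781 and 911 probes. In the values the authors processed there were 2767 and 629 genes (81.5%) and 6578 and 1161 probes. With the E1A spike-ins, 702 genes were lower (77.5% higher), and 5740 and 1312 probes. Without scaling 68.8% of called genes were higher. These scalings are constant factors and move every gene alike. With normexp background correction 1021 genes were higher (53.9%), and 1662 and 1516 probes. Looser detection and no filter on dim probes gave the same counts, 1852 genes lower and 5808 and 4069 probes. At 4-fold, 666 genes were higher and 352 lower (65.4%), and 1181 and 587 probes. Without bounds 54.0% of genes and 2290 probes were higher. The 75th percentile over distinct probes, added after the data were seen, gave 53.3%. The other values of these counts stayed within 1.5 times.

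Of 162 named genes at least 2-fold apart, 2051 of 2052 values over 14 alternatives kept their direction, and 87 values in 40 genes were below 2-fold. The exception was *Eda2r*, at 1.23 on the log2 scale by the probe brightest in LuM1 cells, since its probes disagree. The size of a ratio was less stable where 1 signal was near background. *Ctla2a* ran from 6.94 to 9.25 on the log2 scale and *Sox2* from -5.91 to -3.91. No paired analysis was possible because each line has 1 array. With signals near background, ratios have limits only, and an unknown spread between cultures applies to all values.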
